A study of Mus musculus with 3 samples.

Results

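The genes described here are trichohyalin (Tchh) and 9 keratins of the hair follicle, namely the inner root sheath keratins Krt25, Krt27, Krt28, Krt71, Krt72 and Krt73 and the hair shaft keratins Krt31, Krt32 and Krt35. They were picked by gene symbol, and all 10 were found among the 24028 gene identifiers of the deposited count table. They had been chosen with earlier results from the same libraries in view, so their levels and ratios are a description, without a test. RNA was sequenced from papillomas, which are benign tumours of the epidermis, grown on the skin of C57BL/6 mice of 3 genotypes. Tg46 mice carry a transgene that expresses galectin-7 from the keratin 14 promoter, which is active in basal keratinocytes and the outer root sheath. Lgals7-/- mice lack galectin-7, and wild-type mice have their endogenous gene. All tumours were raised with the carcinogen DMBA followed by the promoter TPA, and RNA of 3 pooled tumours made 1 library per genotype. The sex and age of the mice and the hair cycle stage of the skin are not given in the labels.

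The hair follicle wraps the growing hair shaft in an inner root sheath, which hardens before the shaft does and moulds it. Trichohyalin fills granules of the inner root sheath and of the medulla, where it is deiminated, crosslinked by transglutaminases and joined to keratin filaments. Keratin filaments form from pairs of a type I and a type II chain. Krt25, Krt27 and Krt28 encode the type I and Krt71, Krt72 and Krt73 the type II chains of the inner root sheath. Krt31, Krt32 and Krt35 encode type I hair keratins, with Krt35 and Krt32 made early, in the hair matrix and cuticle, and Krt31 later, in the cortex. Papillomas raised with DMBA and TPA can arise from cells of the hair follicle as well as from the epidermis between follicles, where these genes are not part of the usual program.

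Tchh lies in the epidermal differentiation complex on chromosome 3 (93442330 to 93449077, plus strand, mm10), with 5823 bases of annotated exon. The type I members lie on the minus strand of chromosome 11. Krt25 spans 99315516 to 99322951, Krt27 spans 99345565 to 99351104 and Krt28 spans 99364872 to 99374903. Farther along, Krt31 spans 100046646 to 100050551, Krt32 spans 100080848 to 100088226 and Krt35 spans 100092193 to 100096241. On the minus strand of chromosome 15, Krt71 spans 101733949 to 101743109, Krt72 spans 101776172 to 101786460 and Krt73 spans 101793308 to 101802346. Exons of Krt32 overlap those of the antisense gene Gm11571 over 249 bases. No other member has an exon that overlaps an opposite-strand exon. The sources used here do not say whether reads were counted by strand, so counts of Krt32 and Gm11571 cannot be told apart.

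The 250 bases before the annotated start site are shown for 5 members whose counts are compared below, from the RefSeq promoters of GRCm38.p6, which held 9 of the 10 genes. Krt35 had no entry. Capitals mark 4 motifs, searched on both strands: the TATA box TATAAA, the LEF/TCF core CTTTGA, the GATA site AGATAA and the CCAAT box CCAAT. In Tchh the reverse LEF/TCF core and the GATA site overlap and are printed as 1 run of capitals. The positions are chr3:93442080-93442329 on the plus strand for Tchh and, on the minus strand, chr11:99322952-99323201 for Krt25, chr11:99351119-99351368 for Krt27, chr15:101743098-101743347 for Krt71 and chr11:100088270-100088519 for Krt32.
Tchh: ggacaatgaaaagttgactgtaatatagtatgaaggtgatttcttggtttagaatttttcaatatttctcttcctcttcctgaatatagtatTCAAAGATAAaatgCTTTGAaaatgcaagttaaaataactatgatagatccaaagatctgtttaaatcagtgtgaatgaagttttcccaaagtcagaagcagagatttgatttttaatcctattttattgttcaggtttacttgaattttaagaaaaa
Krt25: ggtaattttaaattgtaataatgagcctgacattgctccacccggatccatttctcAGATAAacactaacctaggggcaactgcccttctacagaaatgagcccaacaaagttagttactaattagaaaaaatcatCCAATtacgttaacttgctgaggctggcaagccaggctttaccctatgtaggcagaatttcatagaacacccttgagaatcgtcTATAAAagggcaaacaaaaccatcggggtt
Krt27: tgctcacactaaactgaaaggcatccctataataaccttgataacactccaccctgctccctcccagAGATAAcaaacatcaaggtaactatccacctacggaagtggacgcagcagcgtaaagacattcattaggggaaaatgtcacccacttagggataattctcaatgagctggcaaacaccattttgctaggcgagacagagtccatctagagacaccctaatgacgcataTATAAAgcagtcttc
Krt71: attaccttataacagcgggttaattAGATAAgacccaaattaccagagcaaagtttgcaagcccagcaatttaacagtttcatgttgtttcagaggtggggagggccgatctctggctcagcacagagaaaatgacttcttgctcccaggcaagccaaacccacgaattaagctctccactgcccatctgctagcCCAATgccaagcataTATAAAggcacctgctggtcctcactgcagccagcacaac
Krt32: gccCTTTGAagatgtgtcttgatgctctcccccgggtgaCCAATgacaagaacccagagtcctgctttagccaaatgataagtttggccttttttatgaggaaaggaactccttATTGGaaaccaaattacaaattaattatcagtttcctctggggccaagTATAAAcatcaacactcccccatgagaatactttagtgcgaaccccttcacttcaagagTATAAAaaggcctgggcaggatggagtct

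AGATAA, the form bound by GATA factors, occurred in 5 of the 9 member promoters, against 10.3% of 27025 mouse promoters of the same length. These were Tchh, Krt25, Krt27, Krt71 and Krt73, all genes of the inner root sheath, and each time the motif read in the direction of the gene. It began 154 bases before the start site in Tchh, 194 in Krt25, 183 in Krt27, 225 in Krt71 and 182 in Krt73. Krt28 and Krt72, also of the inner root sheath, had no AGATAA in this stretch, nor had the shaft genes Krt31 and Krt32. With only these shaft promoters to compare, the motif cannot be tied to a layer. GATA3 is known in mouse as a regulator of inner root sheath fate. TATAAA was found in 8 of the 9 promoters, against 13.0% of all, and Tchh was the gene without it. CTTTGA was found in 4 of 9, against 14.0%, and CCAAT in 5 of 9, against 34.5%. Neighbouring keratin genes descend from common copies, so the members are not independent draws, and a match of letters is not a site of binding.

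The count tables were shallow, with totals of 354499 in Tg46, 312600 in Lgals7-/- and 172011 in wild-type. The level of 3 counts, the most that a gene at 0 could hold, was 8.95, 9.11 and 17.4 CPM, a unit of counts corrected for library size, in Tg46, Lgals7-/- and wild-type. The gene behind the genotypes, Lgals7, held 4, 2 and 0 counts in these libraries, too few to check the labels. Epidermal keratins marked the tissue in every library, with 95, 81 and 20 counts at Krt14, the basal keratin, and 111, 96 and 25 at Krt10, a suprabasal keratin. With 1 library for each genotype, differences have no replicate check, and all intervals are 95% intervals of counting error only. In such bulk RNA, fewer follicle cells and less RNA per cell cannot be told apart.

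Tchh was the most abundant member in all 3 libraries. It held 209 counts in Tg46, 1202 in Lgals7-/- and 160 in wild-type. Only 1 identifier of 24028 had more counts than Tchh in Lgals7-/-, whereas Tchh ranked 128 in Tg46 and 37 in wild-type. Scaled to library size, Tchh stood at 624 CPM in Tg46 (542 to 714), 3652 CPM in Lgals7-/- (3448 to 3864) and 926 CPM in wild-type (788 to 1081). The intervals of the 3 libraries did not overlap, with Lgals7-/- highest and Tg46 lowest. Tchh was 5.84-fold lower in Tg46 than in Lgals7-/- (5.05 to 6.81) and 1.49-fold lower in Tg46 than in wild-type (1.20 to 1.83). It was 3.93-fold higher in Lgals7-/- than in wild-type (3.34 to 4.68). Tchh made up 75.7% of the counts of the 10 genes in Tg46 (exact interval 70.2 to 80.7), 84.2% in Lgals7-/- (82.2 to 86.1) and 70.8% in wild-type (64.4 to 76.6).

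**Figure D1:**
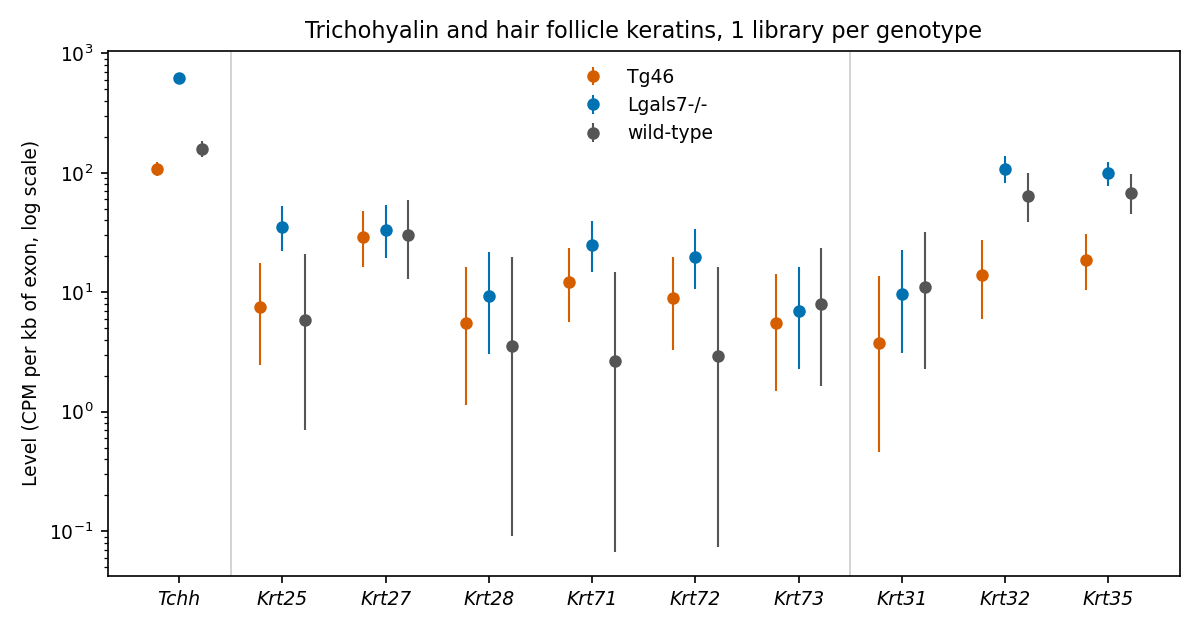
Level of each gene in CPM per kb of annotated exon (log axis) in the Tg46, Lgals7-/- and wild-type libraries, with exact Poisson 95% intervals; grey lines separate Tchh, inner root sheath keratins and hair shaft keratins. Tchh lies above every keratin in every library, and for Krt32 and Krt35 the Tg46 library is the lowest.

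Among the hair shaft keratins, Krt32 and Krt35 were the members with the most counts after Tchh in Lgals7-/- and in wild-type. Krt35, a keratin of the hair matrix and cuticle, held 15 counts in Tg46, 78 in Lgals7-/- and 28 in wild-type, or 44.8, 237 and 162 CPM. It was 5.16-fold lower in Tg46 than in Lgals7-/- (3.02 to 9.91) and 3.57-fold lower in Tg46 than in wild-type (1.87 to 7.29). Krt32, a keratin of the hair cuticle, held 8, 61 and 19 counts in Tg46, Lgals7-/- and wild-type, or 23.9, 185 and 110.0 CPM. It was 7.37-fold lower in Tg46 than in Lgals7-/- (3.70 to 18.8) and 4.45-fold lower in Tg46 than in wild-type (1.93 to 12.2). For both genes Tg46 was the low library. Between Lgals7-/- and wild-type the intervals included equality, with ratios of 1.45 for Krt35 (0.939 to 2.34) and 1.66 for Krt32 (0.993 to 2.99). This depended on the scaling: the interval of Krt32 began at 1.05 with DESeq2 size factors, 1.04 with total counts and 1.10 with TMM factors over all genes, and that of Krt35 at 1.04 with the last of these. Krt31, the cortical keratin, held only 2, 5 and 3 counts in Tg46, Lgals7-/- and wild-type, and its ratio of Tg46 to Lgals7-/- of 0.446 had an interval from 0.0374 to 2.40. Of the 50-base stretches of Krt31 transcripts, 28.1% also occur in transcripts of other keratin genes, the highest share of any member. The sources used here do not say how such reads were counted.

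Among the type I keratins of the inner root sheath, Krt25 was called in both comparisons with Lgals7-/- and Krt27 in none. Krt25 held 5 counts in Tg46, 23 in Lgals7-/- and 2 in wild-type, so that Lgals7-/- was the high library. It was 4.35-fold lower in Tg46 than in Lgals7-/- (1.74 to 15.8) and 4.93-fold higher in Lgals7-/- than in wild-type (1.49 to 52.8). With 5 in place of 0.5 counts added to each library, these ratios of Krt25 were 0.351 for Tg46 over Lgals7-/- and 2.10 for Lgals7-/- over wild-type. Krt27 held 15, 17 and 8 counts in Tg46, Lgals7-/- and wild-type, which is 44.8, 51.6 and 46.3 CPM. Its ratios were 0.870 for Tg46 over Lgals7-/- (0.403 to 1.84) and 1.08 for Lgals7-/- over wild-type (0.456 to 2.99). These intervals allow a difference of 2-fold, so the similar levels do not show that Krt27 was the same in the 3 libraries. Krt28 held 3, 5 and 1 counts in Tg46, Lgals7-/- and wild-type, and no difference was detectable at this depth. Of the 50-base stretches of Krt25 and Krt27, 10.9% and 11.1% are shared with other keratin genes, each other included.

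The type II partners Krt71 and Krt72 were highest in Lgals7-/- by count. Krt71, found in all layers of the inner root sheath, held 9 counts in Tg46, 18 in Lgals7-/- and 1 in wild-type. It was 6.47-fold higher in Lgals7-/- than in wild-type (1.49 to 394), and its ratio of 0.504 for Tg46 over Lgals7-/- had an interval that included 1 (0.194 to 1.15). Krt72, a keratin of the inner root sheath cuticle, held 6, 13 and 1 counts in Tg46, Lgals7-/- and wild-type. It was 4.72-fold higher in Lgals7-/- than in wild-type, with an interval that only just excluded equality (1.02 to 290.0). Both folds rest on 1 wild-type count: with 5 counts added to each library they were 2.01 for Krt71 and 1.57 for Krt72, which was then not called. Its ratio for Tg46 over Lgals7-/- was 0.473 (0.141 to 1.28). Krt73, also of the cuticle, held 4, 5 and 3 counts in Tg46, Lgals7-/- and wild-type.

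**Figure D2:**
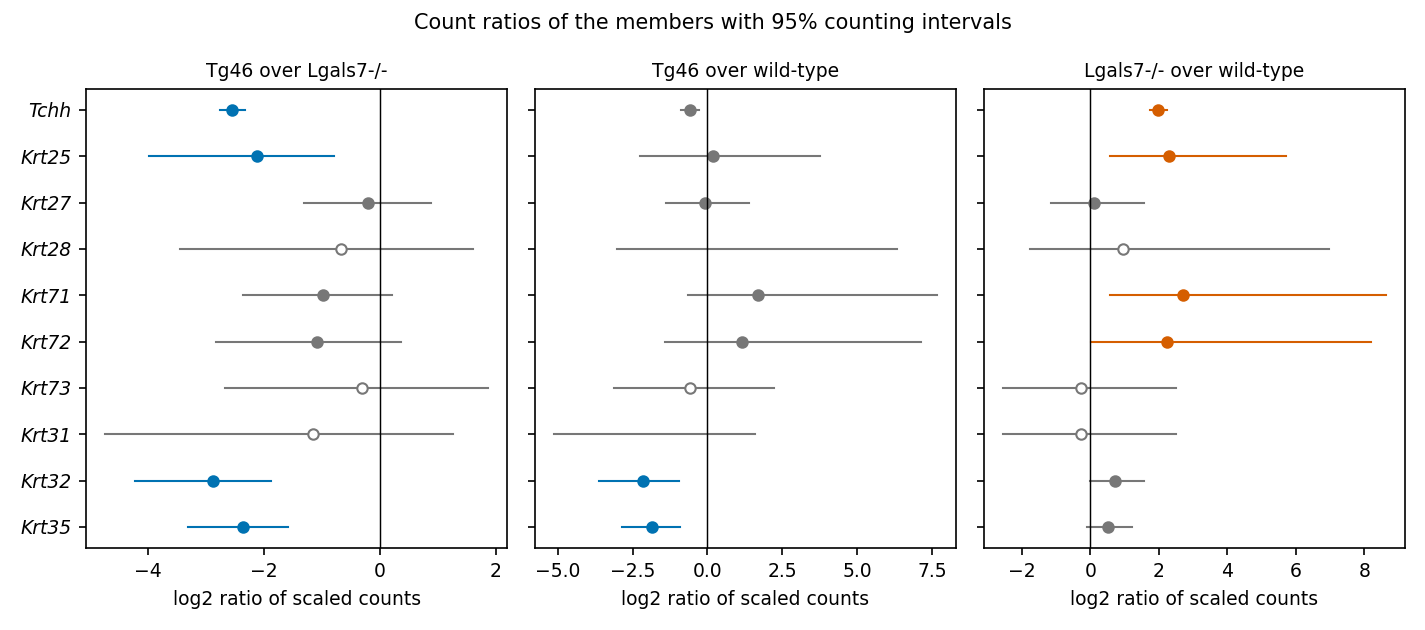
Log2 ratio of scaled counts of each gene for Tg46 over Lgals7-/-, Tg46 over wild-type and Lgals7-/- over wild-type, with 95% counting intervals; blue is called lower, orange called higher, grey neither, and open circles are genes under the filter. Where both libraries held at most 3 counts, only the interval is drawn. In Tg46 over Lgals7-/- every point lies left of 0, and the whole intervals of Tchh, Krt25, Krt32 and Krt35 do.

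Calls were made among the 12940 genes that reached 10 counts in any library, and needed both a ratio of 2-fold or more, up or down, and an interval without 1. Of the 10 genes, 7 passed this filter, and Krt28, Krt73 and Krt31 did not, with at most 5 counts in any library. Krt25, Krt71 and Krt72 passed only through Lgals7-/-, which favours a call against the other libraries. In Tg46 over Lgals7-/-, 4 of the 7 were called lower (Tchh, Krt25, Krt32 and Krt35), against 7.73% of all genes tested, and 0 were called higher, against 8.43%. In Tg46 over wild-type, Krt32 and Krt35 were called lower, against 13.9% of all genes, and 0 higher, against 13.7%. In Lgals7-/- over wild-type, Tchh, Krt25, Krt71 and Krt72 were called higher, against 13.3%, and 0 lower, against 13.7%. The median log2 ratios of the 7 were -2.12, -0.09 and 1.98 in these comparisons, beside -0.03, 0.11 and 0.10 for all genes tested. The comparisons share libraries, so their calls are not independent, and the choice of the genes used these values.

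Summed by layer, the keratins described here were highest in Lgals7-/- in both layers. The 6 inner root sheath keratins together held 42 counts in Tg46, 81 in Lgals7-/- and 16 in wild-type, or 125, 246 and 92.6 CPM. The 3 hair shaft keratins held 25, 144 and 50 counts in Tg46, Lgals7-/- and wild-type, or 74.6, 437 and 289 CPM. Tg46 was the lowest library for the shaft keratins, with a ratio to wild-type of 0.260 (0.153 to 0.425). For the inner root sheath keratins the ratio of Tg46 to wild-type was 1.33, with an interval that included 1 (0.745 to 2.58). The ratios of Lgals7-/- to wild-type were 2.59 for the inner root sheath keratins (1.54 to 4.87) and 1.50 for the shaft keratins (1.09 to 2.13).

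**Figure D3:**
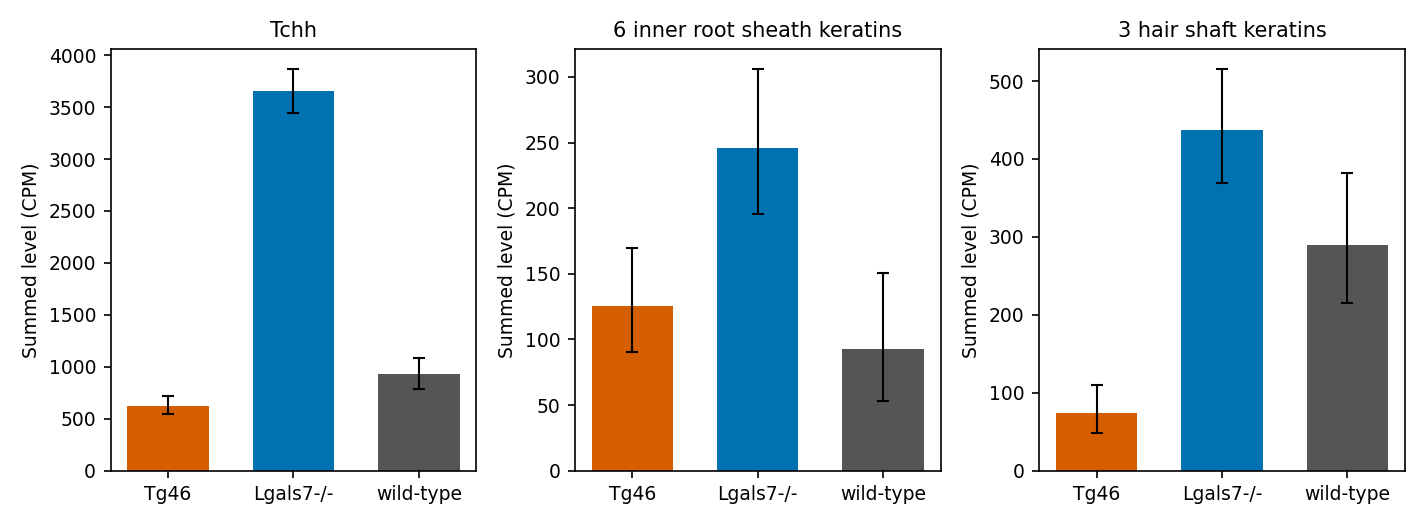
Summed level in CPM of Tchh, of the 6 inner root sheath keratins and of the 3 hair shaft keratins in the Tg46, Lgals7-/- and wild-type libraries; bars are the level of the library and lines its exact Poisson 95% interval. Each panel has its own axis from 0, and Lgals7-/- is highest in all panels; Tg46 lies under wild-type for Tchh and for the shaft keratins.

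Quotients of counts within a library do not depend on library scaling. The quotients here hold only the keratins chosen for this report, and other keratins of both layers, given below, are not in them. There were 0.595 shaft keratin counts per inner root sheath keratin count in Tg46, 1.78 in Lgals7-/- and 3.12 in wild-type. The odds ratio was 0.336 for Tg46 against Lgals7-/- (exact interval 0.182 to 0.610) and 0.193 for Tg46 against wild-type (0.0837 to 0.428). Between Lgals7-/- and wild-type it was 0.570, with an interval that included 1 (0.284 to 1.10). Without Krt27, the keratin with the most wild-type counts among those of the inner root sheath, it was 0.361 and its interval excluded 1 (0.140 to 0.826). Tchh counts per shaft keratin count were 8.36 in Tg46, 8.35 in Lgals7-/- and 3.20 in wild-type. The odds ratio of Tchh to shaft keratins for Tg46 against Lgals7-/- was close to 1, with an interval from 0.633 to 1.64. Against wild-type it was 2.61 in both Tg46 (1.51 to 4.60) and Lgals7-/- (1.78 to 3.79). Tchh counts per inner root sheath keratin count were 4.98 in Tg46, 14.8 in Lgals7-/- and 10 in wild-type. The odds ratio was 0.336 for Tg46 against Lgals7-/- (0.221 to 0.514) and 0.498 for Tg46 against wild-type (0.252 to 0.944). Between Lgals7-/- and wild-type it was 1.48, with an interval that included 1 (0.789 to 2.64). Type II to type I keratins of the inner root sheath stood at 0.826 in Tg46, 0.800 in Lgals7-/- and 0.455 in wild-type. With 5 type II counts in wild-type, the odds ratios to wild-type of 1.80 for Tg46 (0.471 to 7.82) and 1.75 for Lgals7-/- (0.503 to 7.03) included 1.

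Per length, the level of Tchh was 107 CPM per kb of exon in Tg46, 627 in Lgals7-/- and 159 in wild-type, above every other member in each library. In Lgals7-/- it was followed by Krt32 at 108 and Krt35 at 98.9, then Krt25 at 35.1, Krt27 at 33.3, Krt71 at 25.01 and Krt72 at 19.8 CPM per kb. The intervals of Krt32 and Krt35 overlapped, as did those of each neighbouring pair from Krt25 down to Krt72. In wild-type the order after Tchh was Krt35 at 67.6, Krt32 at 63.9 and Krt27 at 29.9 CPM per kb, and the other 6 members lay between 2.65 and 10.98 CPM per kb. In Tg46 the order was different, with Krt27 second at 28.9, then Krt35 at 18.7, Krt32 at 13.9 and Krt71 at 12.3 CPM per kb. The intervals of all these neighbours overlapped in Tg46 except that between Tchh and Krt27.

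Genes of olfactory, vomeronasal and taste receptors, which skin tumours are not known for, give a level to set beside these values. The 95th percentile of 1490 such genes was 10.4 CPM per kb in Tg46, 13.2 in Lgals7-/- and 20.1 in wild-type. Above it lay 5 of the 10 members in Tg46 (Tchh, Krt27, Krt71, Krt32 and Krt35), 7 in Lgals7-/- (these and Krt25 and Krt72) and 4 in wild-type (Tchh, Krt27, Krt32 and Krt35). Krt28, Krt73 and Krt31 lay under it in every library. Whether counts at the level of receptor genes are expression or background was not tested.

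Other hair keratins were measured from a list of 13 shaft keratins, of which 12 were in the table, and of 3 keratins of the inner root sheath and companion layer. Of the 4 shaft keratins that passed the filter, 2 were called lower in Tg46 than in Lgals7-/- (Krt36 and Krt33a), beside the 7.73% of all genes, and 0 higher. Krt33a passed the filter only through Lgals7-/-, where it is high, which favours that call. Krt36, which lies next to Krt35, held 13 counts in Tg46, 46 in Lgals7-/- and 11 in wild-type. It was at 0.285 of the Lgals7-/- level in Tg46 (0.138 to 0.523) and 2.12-fold higher in Lgals7-/- than in wild-type (1.12 to 4.70). Krt33a held 4, 16 and 3 counts in Tg46, Lgals7-/- and wild-type. Krt82, which was called in no comparison, held 8, 9 and 11 counts in Tg46, Lgals7-/- and wild-type. Krt84, which did not pass the filter, held 9, 9 and 6 in these libraries. Krt26, an inner root sheath keratin between Krt25 and Krt27, held 12, 24 and 11 counts in Tg46, Lgals7-/- and wild-type and was called in no comparison. Krt74, an inner root sheath keratin between Krt71 and Krt72, went the other way, with 1 count in Tg46 and 2 in Lgals7-/-, against 14 in wild-type, where it was the high library. The 12 shaft keratins of the list summed to 209 CPM in Tg46, 365 in Lgals7-/- and 307 in wild-type. Tg46 was the lowest, at 0.681 of wild-type (0.470 to 0.992), and Lgals7-/- stood at 1.19 of wild-type, with an interval that included 1 (0.853 to 1.67). The 3 other keratins of the inner root sheath and companion layer summed to 56.7 CPM in Tg46, 97.2 in Lgals7-/- and 162 in wild-type. For these, unlike the inner root sheath keratins chosen here, wild-type was the highest library. Lgals7-/- stood at 0.600 of wild-type, with an interval that included 1 (0.350 to 1.03).

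**Figure D4:**
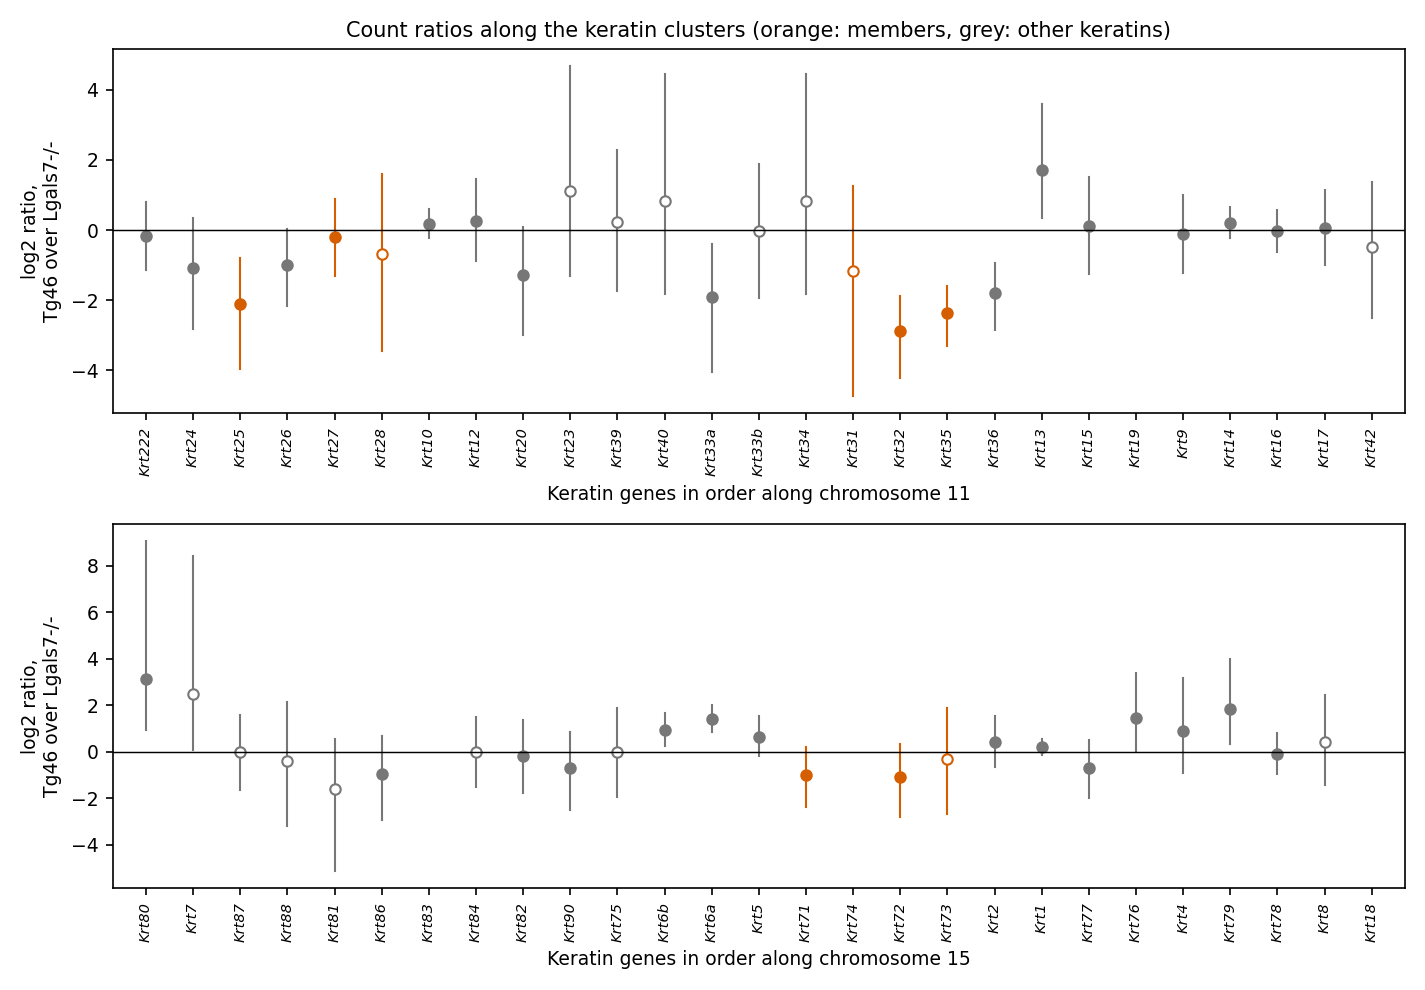
Log2 ratio of Tg46 over Lgals7-/- for keratin genes in their order along chromosomes 11 (top) and 15 (bottom), with 95% counting intervals; orange marks the follicle keratins described here, grey other keratins, and open circles genes under the filter. Genes with no count in either library, or at most 3 counts in both, have no point. Krt32, Krt35 and Krt36 form a run of low ratios, next to Krt13 with a high one.

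On chromosome 11, Krt25, Krt32 and Krt35 were called lower in Tg46 than in Lgals7-/-. Of the 21 other keratin genes there, 14 passed the filter, with 2 called lower (Krt33a and Krt36), 1 higher and 11 neither. Over all genes tested, 7.73% were called lower and 8.43% higher. The keratin called higher was Krt13, a keratin of stratified mucosa next to Krt36, with 18 counts in Tg46, 5 in Lgals7-/- and 3 in wild-type. Krt13 passed the filter only through Tg46, which favours that call. Of the 24 other keratin genes on chromosome 15, 15 passed the filter. Of these, 4 were called higher (Krt80, Krt6a, Krt76 and Krt79) and 0 lower, beside the same shares of all genes. Krt80 and Krt79 also passed only through Tg46. Krt6a, a keratin of stressed and hyperproliferative epidermis, held 95, 35 and 6 counts in Tg46, Lgals7-/- and wild-type. For the 10 epidermal keratins in all, the calls of Tg46 over Lgals7-/- were 2 higher, 0 lower and 8 neither. Their summed counts were 632, 471 and 124 in Tg46, Lgals7-/- and wild-type, a ratio of 1.32 for Tg46 over Lgals7-/- (1.17 to 1.49), where the 10 genes described here had 0.190 (0.166 to 0.216). Against wild-type, the epidermal keratins were 2.63-fold higher in Tg46 (2.16 to 3.21) and 1.99-fold higher in Lgals7-/- (1.63 to 2.45). The 9 follicle keratins summed to 1.78-fold higher in Lgals7-/- than in wild-type (1.35 to 2.39), and the part of keratinocyte content in this was not tested.

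The neighbours of Tchh are genes of the same S100-fused family, whose products are cornified matrix proteins. Tchhl1, the trichohyalin-like gene beside Tchh, held 15 counts in Tg46, 43 in Lgals7-/- and 4 in wild-type. It was called lower in Tg46 than in Lgals7-/- (ratio 0.350, 0.177 to 0.629) and higher in Lgals7-/- than in wild-type (5.07, 2.05 to 21.6). Rptn, repetin, on the other side of Tchh, held 533, 314 and 63 counts in Tg46, Lgals7-/- and wild-type, with the highest level in Tg46. Crnn, cornulin, held 7 counts in Tg46, 32 in Lgals7-/- and 14 in wild-type. Flg2, filaggrin-2, held 44, 23 and 5 counts and Hrnr, hornerin, 37, 32 and 19 in Tg46, Lgals7-/- and wild-type. Of these 5 genes, 2 were called lower in Tg46 than in Lgals7-/- (Tchhl1 and Crnn) and 0 higher. The background for that comparison was 7.73% lower and 8.43% higher calls. In Tg46 over wild-type, Rptn and Flg2 were called higher and Crnn lower, where the background was 13.7% higher and 13.9% lower. In Lgals7-/- over wild-type, Rptn and Tchhl1 were called higher and 0 lower, beside 13.3% and 13.7%. Whether the 5 genes differ from the background was not tested.

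Genes of enzymes that act on trichohyalin had like levels in Tg46 and Lgals7-/-. Of 8 listed (3 transglutaminases, 4 peptidylarginine deiminases and S100a3, a calcium-binding protein of the hair cuticle), 7 passed the filter and 0 were called in Tg46 over Lgals7-/-. Of all genes tested, 8.43% were called higher and 7.73% lower there, so 0 of 7 does not set these genes apart. Their summed counts of 116 in Tg46 and 114 in Lgals7-/- gave a ratio of 0.999 (0.765 to 1.31), against 17 counts in wild-type. Against wild-type, 2 were called higher in Tg46 (Tgm1 and Padi2) and 3 in Lgals7-/-, and 0 lower in either. Of all genes tested, 13.7% were called higher in Tg46 and 13.3% in Lgals7-/-, and 13.9% and 13.7% lower. Tgm1, the transglutaminase of the cornified envelope, held 25, 17 and 2 counts and Padi2 held 22, 21 and 1 in Tg46, Lgals7-/- and wild-type. Exons of Tgm1 and Padi2 overlap opposite-strand exons of Gm49067 and Gm13031.

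Of 15 regulators of the hair matrix and inner root sheath, 11 passed the filter. In Tg46 over Lgals7-/-, 0 were called higher and 1 lower, with a median log2 ratio of 0.083 beside -0.026 for all genes tested. The 4 with the most counts were Cux1, Lef1, Trps1 and Ovol1, transcription factors of follicle keratinocytes, and 0 of them were called in that comparison. Lef1, the partner of beta-catenin in hair keratin transcription, held 31, 26 and 12 counts in Tg46, Lgals7-/- and wild-type. Of 10 outer root sheath and stem cell genes, 9 passed the filter, with 0 called higher and 2 lower in Tg46 than in Lgals7-/-. Over all genes tested in that comparison, 8.43% were called higher and 7.73% lower. Lgr5, a marker of follicle stem cells, held 25, 24 and 12 counts in Tg46, Lgals7-/- and wild-type. Of 52 keratin-associated protein genes, which make the matrix of the hair shaft, 4 passed the filter, and 13 in Tg46, 13 in Lgals7-/- and 24 in wild-type were at 0. Together they held 118, 141 and 60 counts in Tg46, Lgals7-/- and wild-type, a ratio of 0.822 for Tg46 over Lgals7-/- (0.638 to 1.06). Krtap2-4 was called lower in Tg46, with 0 counts against 10 in Lgals7-/-, a difference of at least 3.39-fold against a floor of 3 counts per library if the 10 are taken as exact. The counting interval begins at 2.28-fold, and the gene passed the filter only through Lgals7-/-. The other 3 tested were not called in that comparison. Krtap3-2 held 6, 11 and 0 counts and Krtap14 held 4, 11 and 0 in Tg46, Lgals7-/- and wild-type. Krtap5-5 leaned the other way, with 11, 3 and 1 counts and a ratio of 3.23 for Tg46 over Lgals7-/- (0.951 to 20.1).

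Markers of other cells of the skin were counted beside these genes. Dermal papilla markers (10 genes) summed to 397 CPM in Tg46, 431 in Lgals7-/- and 307 in wild-type. Of their 6 tested genes, 1 was called lower and 0 higher in Tg46 over Lgals7-/-, against 7.73% and 8.43% of all genes. At 0 were 1 marker in Lgals7-/- and 3 in wild-type. Melanocyte markers (8 genes, none at 0) summed to 2014, 987 and 1383 CPM in Tg46, Lgals7-/- and wild-type. Of these, Pmel alone held 624 of 675 counts in Tg46, and its exons overlap those of Cdk2 and Dgka on the other strand. The melanocyte genes Tyrp1, with 6, 17 and 5 counts, and Slc45a2, with 7, 18 and 4 counts in Tg46, Lgals7-/- and wild-type, were called lower in Tg46 than in Lgals7-/-. Tyrp1 and Slc45a2 reached 10 counts in Lgals7-/- alone, so the filter leaned towards their lower calls. Pmel and Oca2 were called higher. The 5 melanocyte markers that could be tested thus gave 2 lower and 2 higher calls. Lower calls made up 7.73% of the whole tested set in this comparison, and higher calls made up 8.43%. Sebaceous gland markers (10 genes) summed to 2157, 914 and 1140 CPM in Tg46, Lgals7-/- and wild-type, with 2, 1 and 2 of them at 0. Of these, Far2, with exons of Ergic2 and Far2os2 across it, held most counts. Skeletal muscle markers (8 genes, none at 0) summed to 266, 340 and 509 CPM in Tg46, Lgals7-/- and wild-type. Adipocyte markers (8 genes) summed to 194, 149 and 116 CPM and leukocyte markers (10 genes) to 346, 392 and 428 CPM in these libraries, with at most 1 of either list at 0. Of the leukocyte markers, Lyz2, lysozyme of macrophages and neutrophils, held 6 counts in Tg46, 39 in Lgals7-/- and 5 in wild-type. Like Tchh it was highest in Lgals7-/-, with 6.19-fold lower scaled counts in Tg46 than in Lgals7-/- (2.78 to 19.1) and 3.77-fold higher scaled counts in Lgals7-/- than in wild-type (1.61 to 13.3). It was the only one of 6 leukocyte markers tested that was called in either of these comparisons. Of all genes, 7.73% were called lower in the first and 13.3% higher in the second. Lyz2 passed the filter only through Lgals7-/-, which favours both calls. The part of other cell types in the follicle gene levels was not tested.

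Among the 197 other genes with at least 300 counts in all, those with profiles most like that of Tchh over the 3 libraries were Tpgs2, Syn3, Malat1, Mir99ahg and Ppifos. Likeness was the Euclidean distance between centred log2 CPM profiles, which was 1.05 for Tpgs2 and 1.49 for Ppifos. All 5 have exons that overlap an opposite-strand exon. Over the 12940 genes that reached 10 counts this share was 32.4%. It was not computed among the 197 genes, so whether 5 of 5 is unusual there was not tested. Tpgs2 held 105 counts in Tg46, 331 in Lgals7-/- and 123 in wild-type. By the same measure Krt25 lay at 0.534 from Tchh, Krt35 at 1.11 and Krt32 at 1.18. These keratins held fewer than 300 counts and could not enter that ranking. Other genes under 300 counts were not ranked, so whether any lay nearer to Tchh was not tested. With 3 libraries such distances are a description only.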

How the data were processed

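RNA from papillomas, 3 tumours pooled per genotype, was extracted with TRIzol and RNeasy columns and made into libraries with an Illumina kit, per the labels' protocols. The authors deposited unnormalized counts, whole numbers for each Entrez gene, in 3 libraries. The genome build is mm10, per the submitters' processing notes. For the aligner, counter, annotation and use of strand, nothing is given in the sources used here. Symbols came from RefSeq (GRCm38.p6) for 23968 of 24028 identifiers, and gene models from GENCODE M21 (GRCm38) for 23710.

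TMM factors from edgeR 4.0.16 in R 4.3.3 (0.945, 1.05 and 1.00 in Tg46, Lgals7-/- and wild-type) scaled the counts, and were computed over genes that reached 10 counts in any library. Before a ratio was taken, 0.5 was added to each count, but not to the sums of the other gene lists. Ratio intervals are exact Clopper-Pearson intervals of the pair of counts, level intervals are exact Poisson, and odds ratio intervals are exact conditional ones, all at 95%. No quasi-likelihood test can be fitted with 1 library per genotype, so no p-values are given, and a call compares libraries, not conditions. Reads made by PCR, with no molecular identifiers, are not independent molecules, so intervals and floors cover counting error only. Where both libraries held at most 3 counts no fold is given. The intervals and calls were tried on simulated counts that held counting error only, so variation between tumours was not covered. Other steps ran in Python 3.11.15 with scipy 1.17.1, numpy 2.4.6 and pandas 2.3.3.

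The members, gene lists and comparisons were chosen with earlier results of these data known. All 10 members are named. From each other list, named genes are among the 4 with the most counts over the 3 libraries; Krt13, Krt80, Krt76, Krt79 and Crnn are named as neighbours, after their values were seen. Scaling by total counts or by size factors of DESeq2 1.42.0 was tried as an alternative, as were no filter, a filter of 100 counts, adding 5 counts, thresholds of fold alone and of 4-fold, and sums that left out Tchh or Krt32. TMM factors over all genes and odds ratios without single keratins were chosen after seeing the data, as were the quotients by layer and the receptor gene level.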

Additional observations from a re-analysis of the deposited data

How the results depend on the processing

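No paired analysis was possible because there is a lone library of every genotype. Of 112 ratios of single members recomputed with other scalings or added counts, 5 came to lie on the other side of 1, of which 0 belonged to a call. With 5 counts added, 9 moved by more than 1.5-fold, all of Krt25, Krt28, Krt31, Krt71 or Krt72, and 1 call was lost: Krt72 in Lgals7-/- over wild-type fell to 1.57. Intervals of such genes are too wide to measure stability. Of 30 recomputed summed ratios and odds ratios, 0 reversed. Without Krt27, the odds ratio of shaft to inner root sheath keratins in Lgals7-/- over wild-type was 0.361. The sums without Tchh were 0.294 for Tg46 over Lgals7-/-, 0.523 for Tg46 over wild-type and 1.78 for Lgals7-/- over wild-type, against 0.190, 0.629 and 3.31 with it.

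With a filter of 100 counts, Tchh was the only member tested, so that 1 was called lower in Tg46 than in Lgals7-/-, 0 lower in Tg46 than in wild-type and 1 higher in Lgals7-/- than in wild-type. Fold alone called 2 members (Krt71 and Krt72) higher in Tg46 than in wild-type. A 4-fold threshold left 1 (Krt32) lower in Tg46 than in wild-type. Of 4 members with a higher call in Lgals7-/- over wild-type, 3 had it at 4-fold, where Tchh was lost, and 3 with 5 counts added.

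Calls over all genes are given in the order Tg46 over Lgals7-/-, Tg46 over wild-type, Lgals7-/- over wild-type. They were 1091, 1768 and 1715 higher and 1000, 1793 and 1772 lower. Testing only genes that reached 100 counts gave 104, 108 and 31 higher and 4, 6 and 20 lower. With 5 counts added, 658 (Tg46) and 584 (Lgals7-/-) genes were higher than in wild-type, and 1790 and 1766 lower. The same count is added to each library before scaling, so it weighs most in wild-type, the smallest library. For a gene at 0 in both libraries, equal added counts alone give 0.516 for Tg46 and 0.525 for Lgals7-/- over wild-type. By fold alone the higher calls were 1808, 3307 and 3269, and the lower calls of Tg46 over Lgals7-/- 1653. A 4-fold threshold left 325 and 1134 higher in Tg46 over Lgals7-/- and over wild-type, and 309, 763 and 716 lower. Total counts lowered every log2 ratio of Tg46 over Lgals7-/- (shift -0.16) and made 35.6% of its calls higher, against 52.2%. TMM over all genes raised every log2 ratio to wild-type by 0.15 in Tg46 and 0.14 in Lgals7-/-. The counts of members called did not change with DESeq2 size factors, total counts, TMM over all genes or no filter.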
